A study of Mus musculus with 6 samples.

Results

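AP-1 factors and other early genes were measured in muscle satellite cells from mice with a deletion of Rpt3, a subunit of the proteasome, in these cells, and from control mice. The set comprised 10 genes: Fos, Fosb, Fosl2, Jun, Junb, Jund, Atf3, Egr1, Ier2 and Dusp1. They were taken by gene name, and every array probe that carried one of these names was used, which gave 11 of the 55681 probes on the array. All 10 genes were among the 17953 gene names tested. Knockout samples were satellite cells of C57BL6 mice in which Rpt3, the product of Psmc4, had been deleted only in these cells; control samples came from control mice of this strain. There were 3 mice and 3 arrays in each group, and 5 ng of total RNA per sample was amplified before labelling with Cy3. The age of the mice, the driver of the deletion and the genotype of the controls are not given in the sources used here.

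AP-1 is a transcription factor made of paired leucine zipper proteins. JUN proteins can pair with themselves or with FOS proteins, whereas FOS proteins bind DNA only as partners of JUN proteins. Many of these genes are immediate early genes: they are transcribed within minutes of a signal from existing factors, without new protein synthesis, and their mRNAs and proteins are short-lived. Several AP-1 proteins are themselves degraded by the proteasome. Quiescent satellite cells are known to switch on early genes while muscle is dissociated, so in sorted cells their mRNA can report on isolation as well as on the state in the animal. All 6 arrays came from sorted cells, so the part of each signal that arose during isolation was not measured.

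None of the 10 early genes passed the test between knockout and control cells. All of them were well above background on all 6 arrays in both groups. The widest differences were in Fos, whose signal in knockout cells was 71.6% of that in control cells, and in Junb, whose signal was 1.40-fold that of control cells. In such bulk samples fewer cells of a type and less RNA per cell cannot be told apart. Fos and Fosb were lower in every knockout sample than in any control sample, and no member was higher in every knockout sample. Which groups overlapped depended on the scaling, as given beside Fos, Fosb and Junb. The mean was higher in knockout cells for 4 members and lower for 6. By limma, with Benjamini-Hochberg adjustment over 17953 gene names, 0 members and 0 of all gene names passed an adjusted p of 0.05 in either direction (0% higher and 0% lower). At an unadjusted p under 0.05, 0 of the 10 members were counted (up to 3 under other processing), beside 1297 gene names, or 7.22% (2.82% higher and 4.41% lower). A difference over 1 on the log2 scale, or 2-fold, was reached by 0 members and by 3.97% of all gene names.

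Upstream sequence is shown for 4 members, Fos and Junb because they differed most and in opposite directions, Atf3 and Dusp1 because they hold the motif found in 5 of the 8 members with a promoter in the table used. The sequences are the 150 bases before the gene start, 5′ to 3′ on the gene's strand, from RefSeq on GRCm38.p6. Capitals mark TGACG on either strand, which is the core of the cAMP response element (CRE) bound by CREB and ATF factors, and TATAAA.
Fos, chr12:85473740-85473889, plus strand: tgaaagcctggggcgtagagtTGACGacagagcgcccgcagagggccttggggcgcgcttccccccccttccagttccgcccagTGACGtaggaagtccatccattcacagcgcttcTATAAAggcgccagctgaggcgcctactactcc
Junb, chr8:84978749-84978898, minus strand: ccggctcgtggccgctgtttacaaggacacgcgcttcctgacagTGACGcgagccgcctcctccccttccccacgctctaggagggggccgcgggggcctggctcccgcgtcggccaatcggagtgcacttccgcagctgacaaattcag
Atf3, chr1:191183334-191183483, minus strand: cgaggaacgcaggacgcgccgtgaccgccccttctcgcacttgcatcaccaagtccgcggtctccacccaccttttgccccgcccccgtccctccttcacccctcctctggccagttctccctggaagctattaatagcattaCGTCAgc
Dusp1, chr17:26508473-26508622, minus strand: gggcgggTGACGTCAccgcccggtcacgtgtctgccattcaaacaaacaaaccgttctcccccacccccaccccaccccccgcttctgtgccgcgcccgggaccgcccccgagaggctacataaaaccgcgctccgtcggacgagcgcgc

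Of the members, 8 had a promoter in the RefSeq table; Egr1 and Ier2 did not. Within 250 bases before the start, TGACG on either strand lay in 5 of these 8, namely Atf3, Dusp1, Fos, Fosb and Junb. It lay in 17.8% of all 32851 promoters of the table. The whole palindrome TGACGTCA, which contains TGACG on both strands, was found in Dusp1, where it began 143 bases before the start, and in 1.55% of all promoters. The AP-1 site TGANTCA, searched on both strands, was in 0 of the 8 and in 6.75% of all promoters. The CArG box, the site of serum response factor, was in 0 of the 8 within these 250 bases and in 1.47% of all. Sequence farther upstream and variants of the motifs were not searched, so sites of either kind would be missed. The EGR site GCGNGGGCG was in Fosb and Fosl2 and in 4.70% of all, and TATAAA in Fos and in 12.4% of all. The promoters with TGACG belonged to genes whose differences ran both ways: lower means in knockout cells for Fos, Fosb and Dusp1, higher means for Junb and Atf3.

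Values of the members are log2 signals with the array's 75th percentile set to 0, so 1 unit is a doubling. Of the FOS proteins, c-FOS is the partner of c-JUN in the classical AP-1 dimer. Fos had a log2 signal of 6.86, 6.75 and 6.63 in knockout 1, 2 and 3, and of 6.89, 7.35 and 7.44 in control 1, 2 and 3. The groups did not overlap, but control 1 lay only just above knockout 1, and the controls were spread more widely. With median scaling the groups overlapped, with knockout 1 at 9.14 and control 1 at 9.13, and they overlapped with normexp background correction too. Knockout cells averaged 6.75 ± 0.12 (SD, n = 3) and control cells 7.23 ± 0.30 (SD, n = 3). The log2 difference of -0.48 (SE 0.24, 95% interval from -1.03 to 0.061) did not pass (limma, adjusted p = 0.776). The exact permutation p was 0.1, 2-sided, which is the smallest that 3 arrays against 3 allow. The Fos probe lies on chromosome 12 of build mm9, from 86817900 to 86817959, and is printed in 10 spots on each array. The log2 signals of these spots had an SD between 0.044 and 0.074 within an array, so the spread between arrays was wider than that of the spots. With 1 array a mouse, differences between mice and between preparations cannot be told apart in it. Before scaling, the median signal of the Fos spots ran from 6249 in knockout 3 to 14705 in control 2.

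FosB is a close relative of c-FOS with a similar role in the dimer. Fosb had a log2 signal of 9.73, 9.74 and 9.86 in the knockout samples and of 9.91, 10.10 and 9.99 in the controls. The groups did not overlap, and the gap between knockout 3 and control 1 was narrow beside the spread of each group. With quantile normalization and in the deposited table they overlapped. The log2 difference was -0.23 (SE 0.20, 95% interval from -0.69 to 0.24), which left 85.4% of the control signal and did not pass (limma, adjusted p = 0.958; exact permutation p = 0.1). Fos and Fosb were thus 2 of 10 members whose groups did not overlap, both lower in knockout cells. Over all gene names, 5.91% did not overlap with knockout lower, 4.93% with knockout higher, and 10.8% in either direction.

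Fosl2 encodes FRA-2, a FOS relative that is induced later and lasts longer. Its log2 signal was 6.25, 6.31 and 5.99 in the knockout samples and 6.11, 6.35 and 6.14 in the controls, so the groups overlapped, with knockout 3 the lowest array. The log2 difference was -0.017 (SE 0.21, 95% interval from -0.51 to 0.48; limma, adjusted p = 0.995). Fosl2 is the only member with a second probe, which lies in a coding part of the gene and is shown because its direction differed:
A_51_P507242, Fosl2, chr5:32455088-32455147 of mm9, plus strand: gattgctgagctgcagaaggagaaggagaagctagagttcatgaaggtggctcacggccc
This probe was dim, with unscaled signals from 36.0 to 58.9 over the arrays. The log2 difference at this probe was 0.096 (SE 0.28), and the groups overlapped here too.

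**Figure D1:**
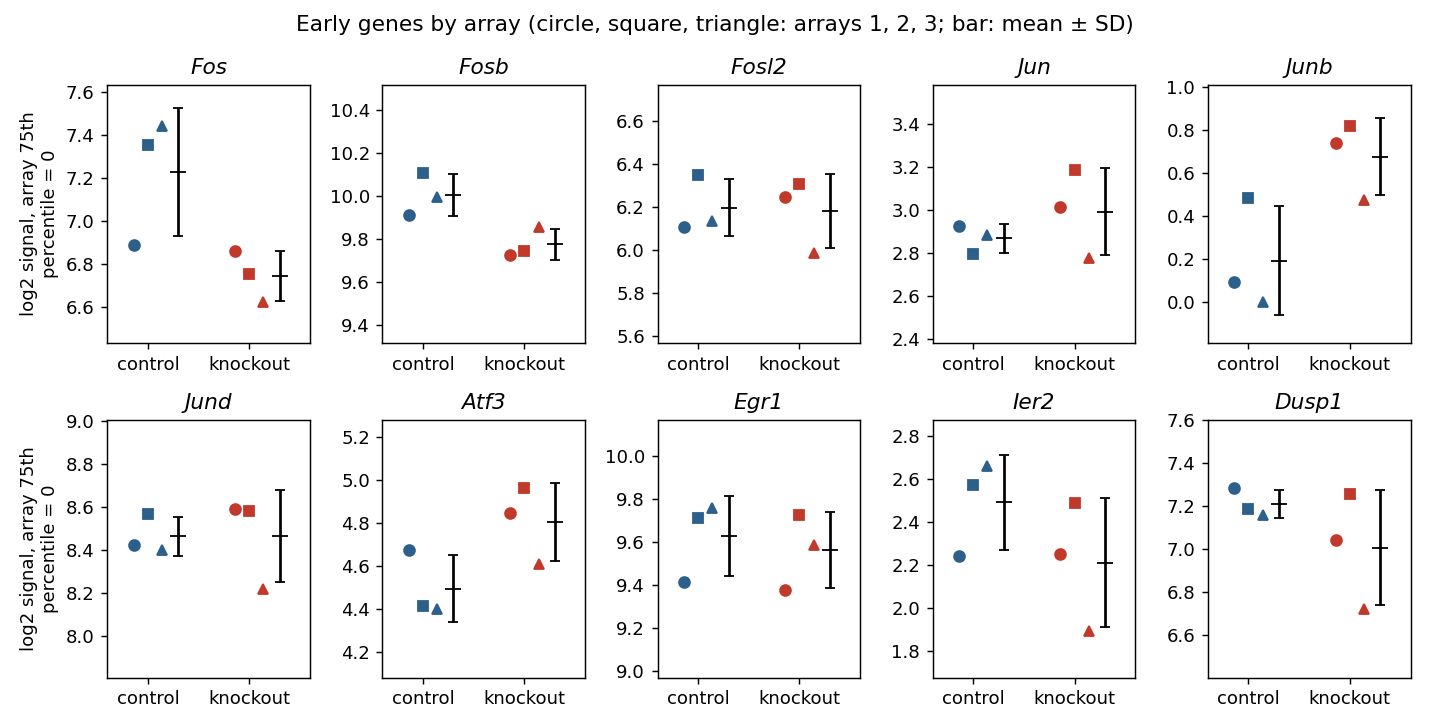
Log2 signal (array 75th percentile set to 0) of each of the 10 early genes in 3 control and 3 knockout arrays, with circle, square and triangle for arrays 1, 2 and 3 and a bar for mean ± SD; each panel spans 1.2 log2 units at its own level. The knockout points lie below the control points only for Fos and Fosb, and in the other 8 panels the groups overlap; with median scaling Fos overlaps as well, with quantile normalization Fosb does and Junb does not.

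The JUN proteins are the obligate partners in the AP-1 dimer, and JunB and JunD can oppose c-JUN on some targets. Junb had a log2 signal of 0.74, 0.82 and 0.47 in knockout 1, 2 and 3. In control 1, 2 and 3 it was 0.091, 0.48 and 0.00014. Knockout 1 and 2 lay above all controls, while knockout 3 and control 2 were nearly level. With quantile normalization, with the percentile over detected probes and in the deposited table, all 3 knockout samples lay above the controls. Junb averaged 0.67 ± 0.18 (SD, n = 3) in the knockout samples, against 0.19 ± 0.25 (SD, n = 3) in the controls. The difference was 0.48 (SE 0.23, 95% interval from -0.056 to 1.02), the highest of the members, and it did not pass (limma, adjusted p = 0.774; exact permutation p = 0.2). The Junb signal rests on 1 probe in a coding part of the gene, shown because the gene's difference rests on it alone:
A_55_P2011106, Junb, chr8:87501881-87501940 of mm9, minus strand: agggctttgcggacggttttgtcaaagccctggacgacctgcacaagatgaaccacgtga
Unscaled, the signal of this probe ran from 81.9 to 185 over the arrays.

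Jun, the gene of c-JUN, had a log2 signal of 3.01, 3.18 and 2.78 in the knockout samples and of 2.93, 2.80 and 2.88 in the controls. The 3 controls lay close together, with knockout 1 and 2 above and knockout 3 below them. The log2 difference of Jun was 0.12 (SE 0.21, 95% interval from -0.37 to 0.62; limma, adjusted p = 0.984). Jund, which is expressed more steadily than the other members of the family and is little induced by signals, had a log2 signal of 8.59, 8.58 and 8.22 in the knockout samples. Its signal in the controls was 8.42, 8.57 and 8.40. Jund averaged 8.46 ± 0.21 (SD, n = 3) in the knockout samples, against 8.46 ± 0.090 (SD, n = 3) in the controls. The log2 difference of Jund was 0.00091 (SE 0.22), with a 95% interval from -0.50 to 0.50. Its sign changed with the processing: it was -0.032 with quantile normalization, -0.028 with normexp background correction and 0.031 with median scaling.

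Atf3 encodes a stress-induced factor that pairs with JUN proteins and often represses its targets. Its log2 signal was 4.85, 4.96 and 4.61 in the knockout samples and 4.67, 4.41 and 4.40 in the controls. Control 1 lay above knockout 3, and the other arrays followed their group. The means were 4.81 ± 0.18 (SD, n = 3) and 4.50 ± 0.15 (SD, n = 3), with a log2 difference of 0.31 (SE 0.22, 95% interval from -0.19 to 0.82). The difference did not pass (limma, adjusted p = 0.919; exact permutation p = 0.2).

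Outside the AP-1 family, Egr1 encodes a zinc finger factor induced by the same signals as Fos. It had a log2 signal of 9.38, 9.73 and 9.59 in the knockout samples and of 9.42, 9.71 and 9.76 in the controls. Array 1 of each group was its lowest, and the groups overlapped almost fully, with a log2 difference of -0.065 (SE 0.22, 95% interval from -0.58 to 0.45; limma, adjusted p = 0.985). Ier2, an immediate early gene of a nuclear protein, had a log2 signal of 2.25, 2.49 and 1.89 in the knockout samples and of 2.24, 2.57 and 2.66 in the controls. Its lowest array was knockout 3, and control 1 lay level with knockout 1. The log2 difference of Ier2 was -0.28 (SE 0.25, 95% interval from -0.85 to 0.29; limma, adjusted p = 0.958).

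Dusp1 encodes a phosphatase that removes the activating phosphates of the p38, JNK and ERK kinases, and so limits the signal that induces the other members. Its log2 signal was 7.04, 7.25 and 6.72 in the knockout samples and 7.28, 7.19 and 7.16 in the controls. The controls lay within a narrow band, with an SD of 0.065, with knockout 2 inside it and knockout 1 and 3 below; the SD of the knockout samples was 0.27. The log2 difference was -0.20 (SE 0.23, 95% interval from -0.72 to 0.32; limma, adjusted p = 0.984).

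**Figure D2:**
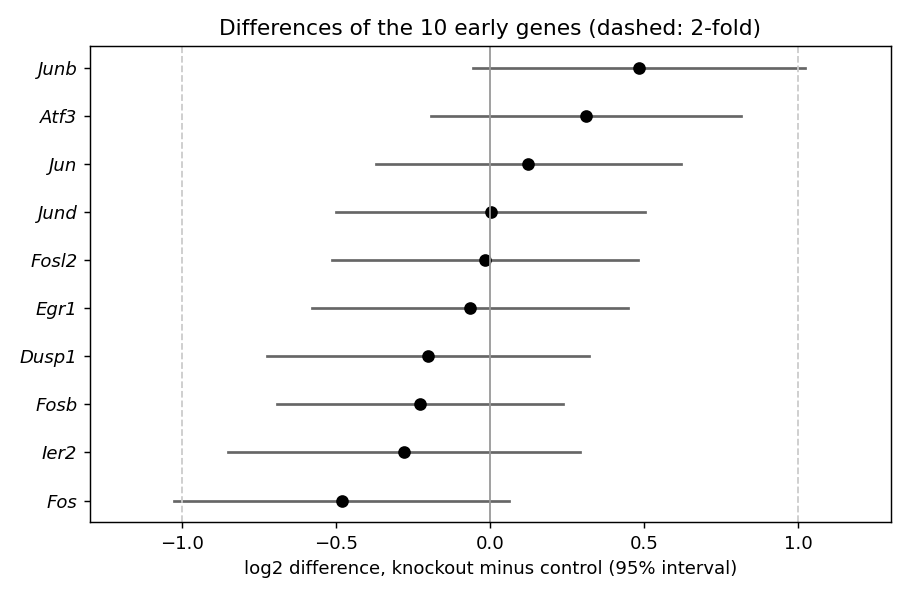
Log2 difference, knockout minus control, of each of the 10 early genes (points) with its 95% interval from the limma fit over all gene names (lines); dashed lines mark a 2-fold change. All 10 intervals include 0, and 8 of them lie within 2-fold in both directions, those of Fos and Junb being the exceptions.

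As a set, the members had a median log2 difference of -0.041, beside 0.037 over all gene names tested. The higher mean lay in knockout cells for 4 of 10 members, beside 55% of all gene names, and in control cells for 6, beside 45%. The median size of the difference, without its sign, was 0.22 for the members and 0.21 for all gene names. For 8 members the 95% interval stayed within 2-fold in both directions, and for Fos and Junb it reached just beyond 2-fold, at -1.03 and 1.02. The SD within groups lay between 0.086 for Fosb and 0.26 for Ier2, and the median over all gene names was 0.34.

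The members did not share 1 order of arrays. Knockout 3 was the lowest array for 6 of 10 members, Fos, Fosl2, Jun, Jund, Ier2 and Dusp1, and the highest for 0. Averaged over the members, each centred on its own mean, knockout 1, 2 and 3 stood at 0.010, 0.12 and -0.19, and control 1, 2 and 3 at -0.064, 0.094 and 0.023. Within this pattern Junb and Atf3 were highest in knockout 2 and lowest in control 3, whereas Fos and Ier2 were highest in control 3 and lowest in knockout 3. Fosl2 and Jund were lowest in knockout 3 and above their own mean in knockout 1 and 2. The 5 gene names whose signal most resembled the mean of the members over the 6 arrays were Acat2, Plxdc2, AW125646, NAP025704-001 and ENSMUST00000077111. Pearson's r with that mean lay between 0.988 and 0.997 for these 5, the highest of 17953 gene names over only 6 arrays.

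**Figure D3:**
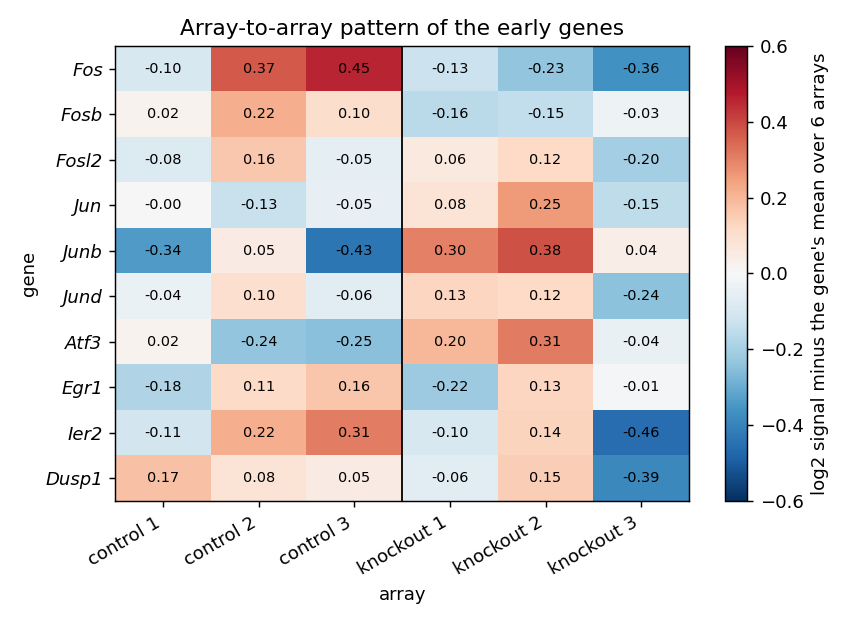
Log2 signal of each early gene (rows) on each array (columns) minus that gene's mean over the 6 arrays, on a colour scale from -0.6 (blue) to 0.6 (red), with the value printed in each cell. Knockout 3 holds the lowest value of 6 genes, Fos is high in control 2 and 3, and Junb and Atf3 are high in knockout 1 and 2.

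Knockout 3 also differed from the other arrays in the measurement as a whole. Of its probes 44.2% were well above background, and on the other arrays the share lay between 51.7% and 57.9%. Slide row was read from the position number in each array's barcode. By this reading, knockout 1 and 2 lay in row 1, and knockout 3 and the controls in row 2. With slide row as a block, knockout 3 is in effect compared alone with the controls. Fitted so, the log2 differences were -0.60 for Fos (limma, adjusted p = 0.346), -0.15 for Fosb, 0.28 for Junb, 0.11 for Atf3, -0.49 for Dusp1 and -0.60 for Ier2, and none passed. Within row 2 alone Fos and Junb were also at -0.60 and 0.28, since both fits set the single array knockout 3 against the same controls. Without knockout 3 the members' median was 0.010, and it was -0.18 with the block. Psmc4 itself, the targeted gene, was lower in all 3 knockout samples, with a log2 difference of -0.92 (SE 0.24; limma, adjusted p = 0.415).

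The sorted cells carried the markers of satellite cells, though not evenly, and of other cells. All 12 satellite cell markers on the list were tested, with 5 higher and 7 lower means in knockout cells. Of the 12, Myf5, Cxcr4 and Calcr were lower in every knockout sample than in any control (25%, beside 5.91% of all gene names). Myf5 was well above background in 0 of 3 knockout samples and Pax7 in 2 of 3. Each marker list was centred gene by gene and averaged per array. All 9 tested endothelial markers had higher means in knockout cells, but the groups overlapped, from -0.66 to 0.72 in knockout and from -0.97 to 0.96 in control samples. Of 8 red blood cell markers, 3 were tested, and their mean ran from 0.53 to 0.97 in knockout and from -1.50 to -0.088 in control samples. That mean rests on Hba-a1, which differed by 1.88, and on a beta-globin probe that was well above background in 3 knockout samples but only 1 control, while Slc4a1 differed by -0.0063. The 5 of 10 neutrophil markers tested ran from -0.70 to 1.11 in knockout and from -0.65 to -0.063 in control samples, with knockout 3 the lowest. Among them S100a8 ran from 2.59 in knockout 2 to -4.09 in knockout 3, and was well above background in 2 of 3 knockout samples. Csf3r and Elane went the other way and were highest in knockout 3. The 7 macrophage markers ran from -0.32 to 0.52 and from -0.41 to 0.23, and the 3 of T and B cells from -0.18 to 0.59 and from -0.33 to 0.0042. The 10 markers of fibro-adipogenic progenitors ran from -0.38 to 0.0049 in knockout and from -0.090 to 0.24 in control samples. Among these 10, means were higher in knockout cells for 3 and lower for 7. Col1a1, Col1a2 and Fbn1 (30%, beside 5.91% of all gene names) were lower in every knockout sample than in any control. The part of these cells in the signals of the early genes was not tested.

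Other genes of the AP-1 family showed the same absence of calls. Of 14, 11 were tested, and 0 passed over all gene names. The median log2 difference was 0.054, with 7 higher and 4 lower means. Fosl1, which encodes FRA-1, was higher in every knockout sample than in any control, the only 1 of the 11 whose groups did not overlap (9.09%, beside 10.8% of all gene names). Its log2 signal averaged 0.80 in knockout and 0.062 in control cells, a difference of 0.74 (SE 0.26; limma, adjusted p = 0.568). Fosl1 thus lay on the side opposite to Fos and Fosb. Mafk, a small MAF protein that pairs with other zipper proteins, differed by 0.39 (SE 0.26), and Atf7, a relative of ATF2, by -0.37 (SE 0.28).

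Among 36 further genes known to respond early to dissociation or to signals, 34 were tested, and 0 passed over all gene names. Higher means were found for 18 and lower for 16, with a median log2 difference of 0.012. The groups did not overlap for 7 of the 34 (20.6%, beside 10.8% of all gene names): Arc, Ccn2, Egr2, Klf4 and Zfp36l1 were lower in every knockout sample, and Cebpb and Gadd45b higher. Arc, an activity-induced gene of the cytoskeleton, had the smallest p of the 5 related lists, with a mean of 3.57 in knockout and 4.48 in control cells (difference -0.91, SE 0.22; limma, adjusted p = 0.362). Ccn2, which encodes the matrix protein CTGF, differed by -0.66 (SE 0.22; adjusted p = 0.553), and Egr2, a sister of Egr1, by -0.40 (SE 0.24; adjusted p = 0.863).

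The MAP kinase phosphatases beside Dusp1 had 7 of 10 genes tested, with a median log2 difference of -0.22, 3 higher and 4 lower means, and 0 past the threshold over all gene names. Dusp10, whose product acts on p38 and JNK, differed by -0.71 (SE 0.23; limma, adjusted p = 0.535), and Dusp16, a JNK phosphatase, by -0.43 (SE 0.25; adjusted p = 0.847). Both were lower in every knockout sample than in any control, so that 2 of 7 (28.6%, beside 10.8% of all gene names) did not overlap. Dusp5, an ERK phosphatase, differed by -0.65 (SE 0.40) and was well above background in 2 of 3 knockout samples.

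Upstream of the members, 20 of 22 kinases and factors of the serum response were tested, and 0 passed the threshold over all gene names. Means were higher for 10 and lower for 10, with a median log2 difference of -0.0070. Only Elk4, at 0.33, had groups that did not overlap, with knockout higher (1 of 20, or 5%, beside 10.8% of all gene names). Map2k4, a kinase that activates JNK, differed by -0.61 (SE 0.31), Map2k2, which activates ERK, by 0.62 (SE 0.34), and Mapk8, the gene of JNK1, by -0.81 (SE 0.56, well above background in 2 of 3 knockout samples). Srf, the gene of serum response factor, which drives Fos and Egr1, differed by -0.089 (SE 0.25). All 13 genes for the turnover of AP-1 proteins or of early mRNAs were tested, with 9 higher and 4 lower means, a median of 0.025 and 0 past the threshold over all gene names. Fbxw7, a ubiquitin ligase subunit that recognizes c-JUN, differed by 0.52 (SE 0.22; limma, adjusted p = 0.692) and was higher in every knockout sample, whereas Zfp36l1 was lower in every one (2 of 13, or 15.4%, beside 10.8% of all gene names). Zfp36 and Zfp36l1 are also among the further early genes above, so Zfp36l1 was counted in both lists. Cnot7, a deadenylase, differed by -0.35 (SE 0.23), and Dcaf7, an adaptor of ubiquitin ligases, by 0.30 (SE 0.23).

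**Figure D4:**
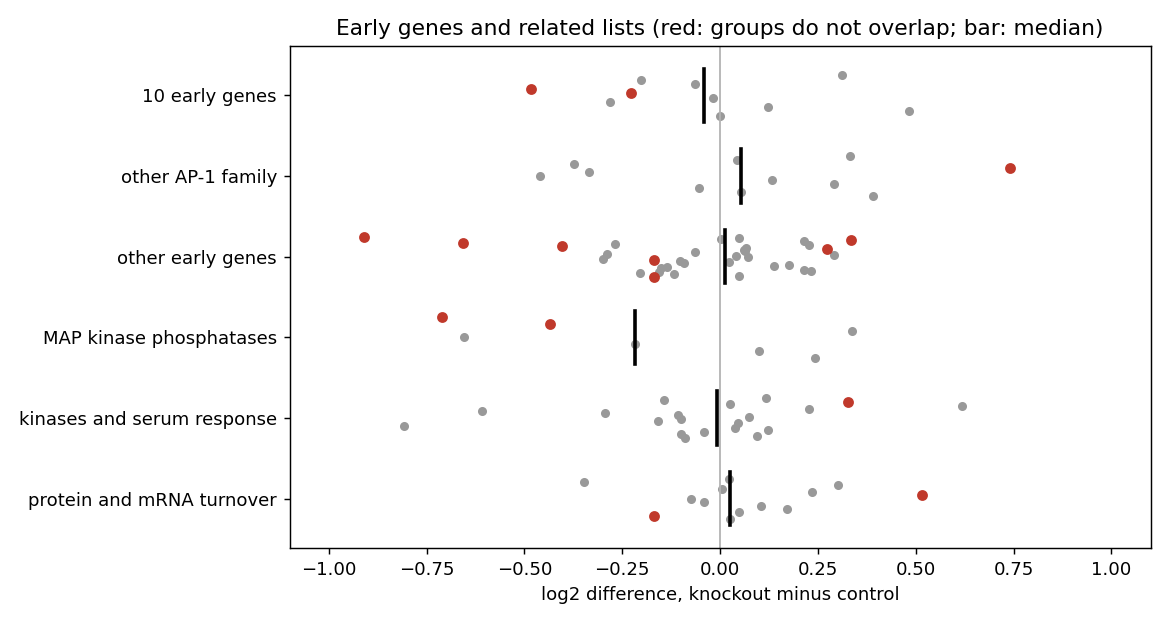
Log2 difference, knockout minus control, of every tested gene (points) in the 10 early genes and 5 related lists (rows), with a bar at each list's median and red points where the groups do not overlap. The medians lie between -0.22 for the MAP kinase phosphatases and 0.054 for the other AP-1 family genes, and the lowest red point is Arc at -0.91.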

How the data were processed

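The 6 scanner files give linear intensity, 1 array each. The authors' processed signal was background-corrected and detrended by Agilent Feature Extraction (10.7.1.1 per the file headers, 9.5.1.1 per the submitters' processing notes). The deposited value table also holds linear intensity, with the same quantiles in every column, and served as an alternative. Signals were taken to log2 and the 75th percentile of the array was subtracted. Controls and outlier spots were removed, and repeated spots averaged. Probes entered the test if every array of 1 group or the other had them well above background; the brightest probe stood for a gene name. Names came from the files and, by accession, from a gene list of GRCm38.p6 (27235 of 55681 probes matched). Probes without a name were not tested. The number of saturated spots was 0.

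The fit used limma 3.58.1 (lmFit, eBayes; R 4.3.3; package data.table, version 1.17.8) with Benjamini-Hochberg adjustment over 17953 gene names and a threshold of 0.05. Precision is limited by the number of arrays; the standard error had a median of 0.28. On simulated data with 17953 gene names and 3 arrays a group, 2.24% of genes changed 2-fold, 64.3% changed 4-fold and 91.5% changed 8-fold were recovered. The members and lists were chosen with earlier results of these data known, so lists are described by counts and medians. All members are named, with up to 3 genes of smallest p from each related list. Genes named because their groups did not overlap, cell markers and Srf were chosen after their values were seen. Alternatives were other background correction, scaling, filter, flag and probe rules, the deposited values, other moderation, blocks and left-out arrays.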

Additional observations from a re-analysis of the deposited data

How the results depend on the processing

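Over 22 alternatives, of which the slide row block and row 2 alone rest on the same contrast, 0 of 220 values of the members passed the threshold, 198 kept their direction and 22 reversed. Both filter rules, every probe, trend and robust moderation, the ordinary test and the replicate block left each member's difference unchanged. No direction could reverse there, so the 198 are not separate checks. The mean of probes changed Fosl2 alone, and the deposited table nearly repeated quantile normalization (Junb 0.49 in both). Fos, Fosb, Ier2, Junb and Atf3 kept their direction in all 22, which include the alternatives that could not reverse it. Fos lay between -0.65 and -0.38 and Junb between 0.28 and 0.63. Jund, at 0.00091, reversed in 11. It was -0.028 with normexp, -0.032 with quantile normalization, -0.011 with the percentile over detected probes, -0.00056 with outlier flags kept and -0.031 in the deposited table. With slide row as a block or row 2 alone Jund was -0.24 and Jun -0.089, the members' median was -0.18, and 2 members had higher means. Fosl2 was 0.013 with median scaling and 0.039 with the mean of probes. With array weights Fosl2 was 0.087, Dusp1 0.016 and Egr1 0.038, the members' median was 0.062, and 7 members had higher means. Leaving out 1 array, Jund ran from -0.062 to 0.12, Fosl2 from -0.081 to 0.081 and Egr1 from -0.17 to 0.028, the members' median from -0.11 to 0.014, the members with higher means from 3 to 5, and 0 gene names passed. At an unadjusted p under 0.05, Fos was counted with normexp, quantile normalization, the deposited table, trend and robust moderation and without control 1, Fosb with the ordinary test, Junb without knockout 3, and Fos, Junb and Atf3 with array weights. Over all gene names 193 passed with array weights, 8 with trend and robust moderation, 2 with median scaling, and 1 each with quantile normalization and in the deposited table. With the replicate number as a block 0 gene names and 0 members passed (Fos -0.48; limma, adjusted p = 0.801). The sample labels state no pairing of same-numbered arrays. Deviations of same-numbered arrays over all gene names had r = 0.073, -0.020 and 0.093, which cannot show whether the mice were handled together. The ordinary 2-sample test gave 0, with 1008 at an unadjusted p under 0.05. The cause of these shifts was not tested. At the recovery found in simulation, which is for all gene names, a 2-fold change would mostly be missed. The members varied less, with an SD within groups from 0.086 to 0.26 beside a median of 0.34. With the main processing, the 95% interval of 8 members stayed within 2-fold. Intervals were not computed for the alternatives.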
